A study of Rattus norvegicus with 24 samples.

Results

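Nuclear receptors were examined in livers of obese and lean Zucker rats that had or had not received ecdysterone, a plant steroid that also serves insects as a moulting hormone. The family was taken as 43 genes named by symbol, and all 43 were found among the 23188 transcripts of the deposited array table, each with 1 probe set. All rats were 25-week-old males. Obese rats carried the leptin receptor allele fa in 2 copies (fa/fa) and lean rats in 1 (fa/+), so that every animal of the study carried this allele. For 4 weeks they ate a semisynthetic diet that lacked ecdysterone (LC, lean; OC, obese) or held 0.5 g of it in each kg (LE, lean; OE, obese), and livers were taken in the non-fasted state. Liver RNA of 6 of the 8 rats of each group, picked at random by the authors, was hybridised to 1 Clariom S rat array per rat. The rats were housed in pairs, but the labels give no cage, so cage mates could not be modelled.

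Nuclear receptors are transcription factors that bind DNA and, in most members, a small fat-soluble ligand such as a steroid, thyroid hormone, retinoic acid, a bile acid, an oxysterol or a fatty acid. Several of them act as pairs with a retinoid X receptor, whereas the steroid receptors wait in complexes with chaperones until hormone binds. In the liver they govern bile acid synthesis, fat oxidation and storage, glucose production and the clearance of foreign compounds. The receptor through which insects sense ecdysterone is itself a member of this family, and mammals lack a direct counterpart of it. The comparisons asked which receptors were transcribed in rat liver and which differed with genotype, with ecdysterone, or with both together.

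All values are log2 signals, on which a difference of 1 is a doubling, and a fold change (FC) below 1 is written with a minus sign as its inverse. The 24 arrays were alike in their medians, 6.51 to 6.61, and each correlated with the others of its group at a mean of 0.983 to 0.988 across transcripts. All 9 hepatocyte markers were above the array background in every group, and none of 8 neural and pituitary markers was. Over both diets, 1 hepatocyte marker was called higher and 3 lower in obese rats (44.4%, beside 6.52% of all transcripts). A score of 13 stellate cell markers, the mean of genes centred over all arrays, ran from -0.42 to -0.09 in lean and from -0.05 to 0.57 in obese rats, without overlap, and 6 of the 13 were called higher in obese rats over both diets. The score of 12 erythroid markers ran from -0.48 to -0.06 in lean and from -0.09 to 0.56 in obese rats, with 7 of the 12 called higher over both diets. Only 4 of these 12 were above the array background in LC and in LE, and 6 in OC and in OE. Because both scores nearly separated the genotypes, a fit with a score cannot tell genotype from cell type. The part of these cell types in the results was not tested. In bulk liver, a change in the number of cells of a type and a change in RNA per cell cannot be told apart. A few lean rats stood apart in clock genes. In LC rats 1 and 2 and LE rats 11 and 12, Nr1d1, a haem-sensing receptor of the clock that is not among the 43, was at 7.21 to 8.51, against 11.53 to 15.30 in the other 20 rats.

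To decide which receptors were detected, the group means were set against the signals of 1526 smell, taste and vomeronasal receptor genes, which liver is not thought to express. The 95th percentile of these genes was 6.38. The receptors above it in every group numbered 31 of 43, and 10 were above it in no group. By the mean over all 24 rats, 32 members lay above it, as did 52.4% of all transcripts. With the 90th or the 99th percentile as the limit, 10 or 12 members were above it in no group. Signals of different genes are not compared here, because each probe set has its own response.

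The receptors for bile acids and oxysterols, foreign compounds, fatty acids and retinoids were above the limit in every rat with 1 exception. These were Nr1h4 (the bile acid receptor FXR), Nr1h3 and Nr1h2 (the oxysterol receptors LXR alpha and beta), Nr1i2 (PXR) and Nr1i3 (CAR) for foreign compounds, Ppara, Ppard and Pparg for fatty acids, and Rara, Rarb and Rarg for retinoic acid. The exception was a single OE rat at 6.36 for Ppard. Also above it in all 24 rats were Hnf4a and Hnf4g, which maintain liver gene expression, both thyroid hormone receptors (Thra, Thrb), Rora, Esr1 (estrogen receptor alpha), Nr3c1 (the glucocorticoid receptor) and Nr3c2 (the mineralocorticoid receptor). The retinoid X receptors differed from each other in this respect. Rxra and Rxrg were above the limit in all 24 rats, whereas Rxrb was above it in 7 rats and as a group mean only in LE. Nr2f1, an orphan receptor, was above it in 14 rats and as a group mean only in LE and OE.

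**Figure D1:**
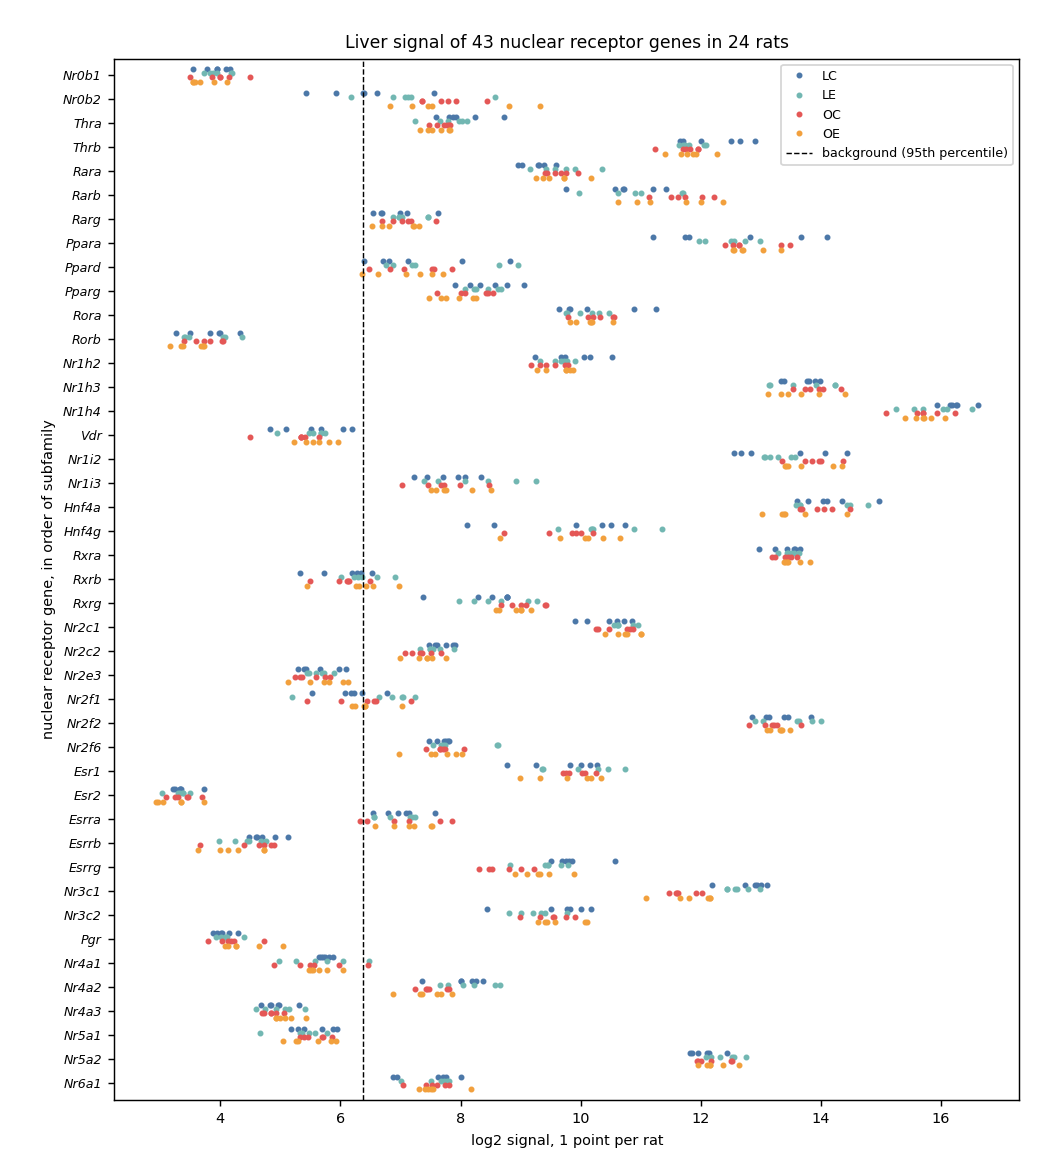
Log2 signal (horizontal axis) of the 43 nuclear receptor genes (rows, ordered by subfamily), with 1 point per rat and 1 colour per group of 6 rats, and the dashed line at 6.38, the 95th percentile of 1526 smell, taste and vomeronasal receptor genes. For 10 genes all 4 group means lie left of the line, and for 31 genes all lie to the right.

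The 10 members below the limit in every group were Nr0b1 (DAX1) and Nr5a1 (SF1), both of steroid-producing glands, Rorb and Nr2e3, known from the retina, Vdr (the vitamin D receptor), Esr2 (estrogen receptor beta), Esrrb, Pgr (the progesterone receptor), Nr4a1 and Nr4a3. Esr2 lay between 2.92 and 3.73 over all 24 rats. Vdr lay between 4.49 and 6.19, and Pgr between 3.79 and 5.04. Nr4a1, an immediate early gene, passed the limit in 2 single rats, LE rat 11 at 6.47 and OC rat 15 at 6.46. A signal under this limit does not show that a transcript is absent, and comparisons of these 10 genes rest on signals that unexpressed genes also gave.

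Rats of 1 group differed from each other about as much in these genes as in others. The SD within groups had a median of 0.34 over the 43 members and 0.32 over all transcripts. Rxra, the shared partner of many receptors, had the smallest (0.19), smaller than that of all but 3.26% of transcripts. Hnf4g (0.77), Ppard (0.75), Nr0b2 (0.75) and Ppara (0.67) had the largest, in the top few percent of all transcripts. The highest values of Ppard and most of the lowest values of Ppara came from the rats with little Nr1d1. Ppard was at 8.02 and 8.82 in LC rats 1 and 2 and at 8.64 and 8.95 in LE rats 11 and 12, the 4 highest values of all 24, while the other 20 rats lay between 6.36 and 7.86. Ppara was at 11.21 and 11.74 in LC rats 1 and 2 and at 11.98 and 12.07 in LE rats 11 and 12, and among the other 20 rats only LC rat 3 (11.80) fell below 12.40. The highest Ppara values, 14.11 and 13.67, were in LC rats 6 and 5, with Nr1d1 at 15.30 and 14.61. The 4 rats low in Nr1d1 were chosen by a measured gene, so no test was made. The part of sampling time was not tested.

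In OC vs. LC, which asks for the genotype difference on the control diet, 3 of the 43 members passed an adjusted p of 0.05 in limma. Nr3c1 and Esrrg fell and Nr0b2 rose. The share of 6.98% stands beside 2.59% of all transcripts called in this comparison. By direction, 1 member was called higher in obese rats (1.44% of all transcripts) and 2 lower (1.15%). The median log2FC was -0.01 over the members and -0.00 over all transcripts, and the median size of the difference was 0.14 and 0.15. Past an FC of 1.3 with an unadjusted p under 0.05 were 9 members, 3 higher and 6 lower, and 10.5% of all transcripts. The groups did not overlap for 2 members and for 2.02% of all transcripts.

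In OE vs. LE, the same difference under ecdysterone, 2 members were called, both lower in obese rats: Nr3c1 and Nr4a2. That is 4.65% of members, beside 2.11% of all transcripts, of which 1.07% were higher and 1.04% lower. The FC and unadjusted p rule took 4 members, all lower in obese rats, and 10.2% of all transcripts. For 1 member, Nr3c1, the groups did not overlap, as was so for 1.76% of all transcripts. The median log2FC was -0.07 over the members and -0.00 over all transcripts, and the median size of the difference was 0.20 and 0.15.

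Over both diets, which uses the same 24 rats and is no separate evidence, 5 members were called (11.6%), beside 6.52% of all transcripts. Nr0b2 and Rarb were higher in obese rats, as were 3.56% of all transcripts. Nr3c1, Esrrg and Nr4a2 were lower, as were 2.95%. Past an FC of 1.3 and an unadjusted p under 0.05 were 8 members and 8.61% of all transcripts. Of the 43, 16 had a log2FC above and 27 below 0, with a median of -0.04 against -0.01 over all transcripts. The median size of the difference was 0.17 over the members and 0.12 over all transcripts.

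**Figure D2:**
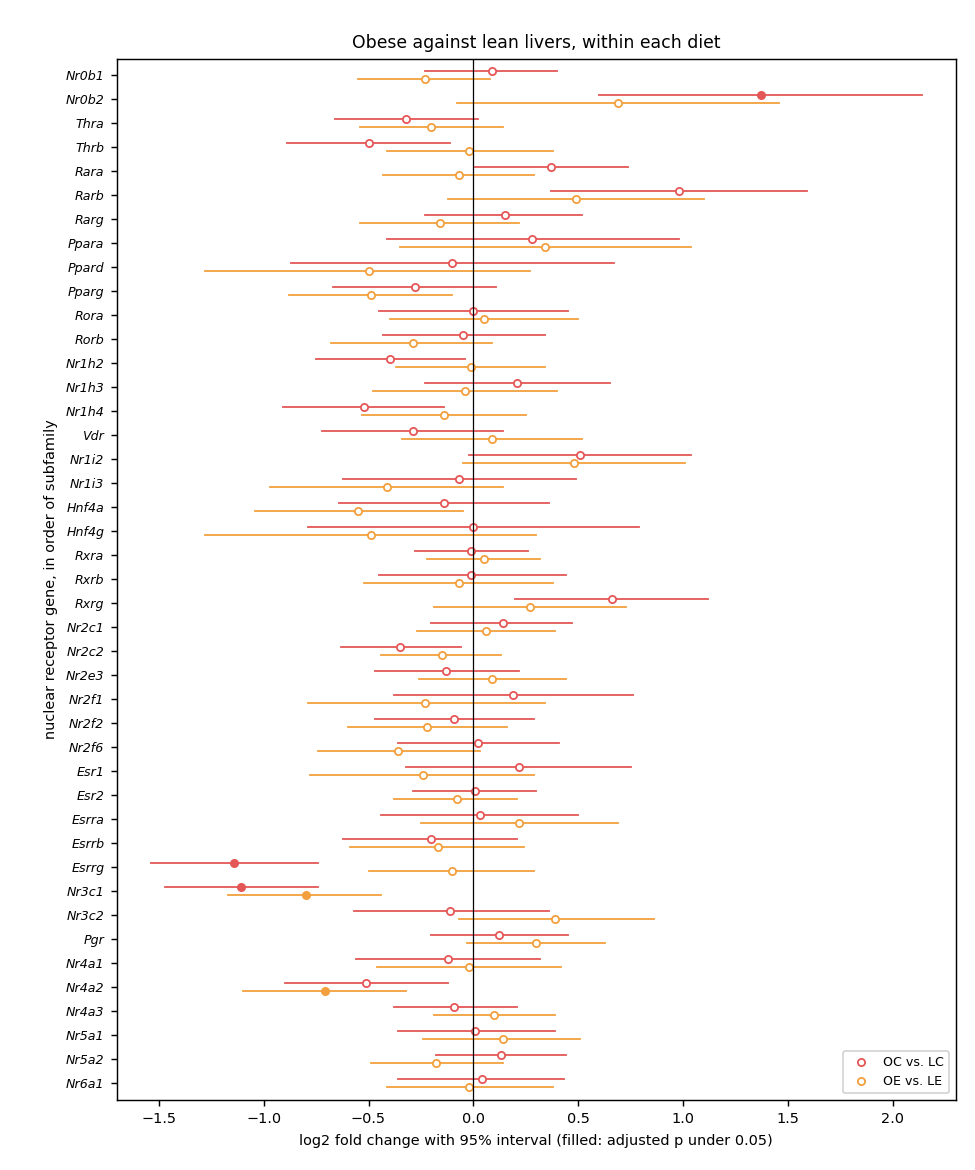
Log2 fold change (horizontal axis) of each of the 43 members (rows) for OC vs. LC (red) and OE vs. LE (orange), with 95% intervals from limma and filled points where the adjusted p was under 0.05. Filled points are Nr0b2, Esrrg and Nr3c1 in OC vs. LC, and Nr3c1 and Nr4a2 in OE vs. LE.

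Nr3c1, the receptor for cortisol and corticosterone, was lower in obese livers on either diet. Its gene lies on chromosome 18 in the deposited annotation. In LC it ranged from 12.19 to 13.11 with a median of 12.93, and in OC from 11.47 to 12.02 with a median of 11.62. In LE it ranged from 12.43 to 12.99 (median 12.59) and in OE from 11.09 to 12.16 (median 11.96). Every obese rat lay below every lean rat. The log2FC was -1.11 ± 0.18 (SE, n = 6 per group; FC -2.15) in OC vs. LC with a limma adjusted p of 0.000213, and -0.80 ± 0.18 (FC -1.75) in OE vs. LE with an adjusted p of 0.0101. Over both diets it was -0.95 ± 0.13 (adjusted p = 4.52e-06), and a two-sided exact permutation test gave 0.00216 for each diet, the smallest p that 6 against 6 rats allow. The stellate cell and erythroid scores differed between the same groups, and with either score in the fit the adjusted p over both diets was 0.194 and 0.0767, at a log2FC of -0.68 and -1.08. In OE vs. LE the limma adjusted p was 0.0537 with the clock gene score in the fit. With the stellate cell score it was 0.716 (log2FC -0.50), and with the erythroid score 0.165 (-0.91). The methods' t-test gave an adjusted p of 0.119 in OE vs. LE and 0.0124 in OC vs. LC.

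Esrrg, the estrogen-related receptor gamma, binds DNA without a known natural hormone and acts on genes of mitochondria and of gluconeogenesis. It lies on chromosome 13. Its signal ranged from 9.50 to 10.57 in LC (median 9.78) and from 8.31 to 9.23 in OC (median 8.66), so the groups did not overlap. On ecdysterone it ranged from 8.83 to 9.79 in LE (median 9.45) and from 8.90 to 9.89 in OE (median 9.31), and these groups overlapped over almost their whole range. The log2FC was -1.14 ± 0.19 (FC -2.20) in OC vs. LC with an adjusted p of 0.00048, and -0.10 in OE vs. LE. Over both diets it was -0.62 ± 0.14 (adjusted p = 0.00366). LC rat 4 was the highest of its group, and the range of the OC vs. LC difference over leaving out each array was -1.24 to -1. The call over both diets remained with the stellate cell score in the fit but not with the erythroid score (log2FC -0.64, adjusted p = 0.50).

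The difference of Esrrg between diets went opposite ways in the genotypes. In lean rats it was lower with ecdysterone, with a log2FC of -0.43 ± 0.19 (95% interval -0.82 to -0.03, unadjusted p = 0.0355). In obese rats it was higher, at 0.61 ± 0.19 (0.21 to 1.00, unadjusted p = 0.004). The test of the difference between both effects, the interaction, gave 1.03 ± 0.27 with an unadjusted p of 0.00075. After adjustment over all transcripts the p was 1, 0.858 and 1, so that none of the 3 passed. These comparisons share their LC and OC rats with OC vs. LC, and Esrrg was the member with the smallest p in OE vs. OC and in the interaction.

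Nr4a2 (NURR1), a receptor without a classical ligand pocket and an immediate early gene of many tissues, was also lower in obese rats. In LE its signal was 7.66 to 8.66 with a median of 8.14, and in OE 6.88 to 7.85 with a median of 7.48. In LC it was 7.36 to 8.38 (median 8.10) and in OC 7.24 to 7.81 (median 7.46). On either diet the groups overlapped, in LC because of rat 1 at 7.36. The log2FC was -0.71 ± 0.19 (FC -1.64) in OE vs. LE with an adjusted p of 0.0438, -0.51 ± 0.19 in OC vs. LC with an adjusted p of 0.197, and -0.61 ± 0.13 over both diets with an adjusted p of 0.0037. In OE vs. LE 12 of the 24 fits that each left out 1 array gave an adjusted p between 0.0504 and 0.124. Among these were the fits without OC rat 13, 14 or 15, which are not in this comparison and left the log2FC at -0.71. The call thus lay close to the threshold. It was also lost with the methods' t-test (adjusted p = 0.221), with limma on these groups alone (0.0887) and without the 4 rats low in Nr1d1 (0.0853). Over both diets the adjusted p was 0.277 with the stellate cell score and 0.672 with the erythroid score in the fit, at a log2FC of -0.68 and -0.46. The other NR4A genes, Nr4a1 and Nr4a3, were below the array background, and 1 of 19 immediate early genes was called over both diets (Dusp1, lower in obese rats).

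**Figure D3:**
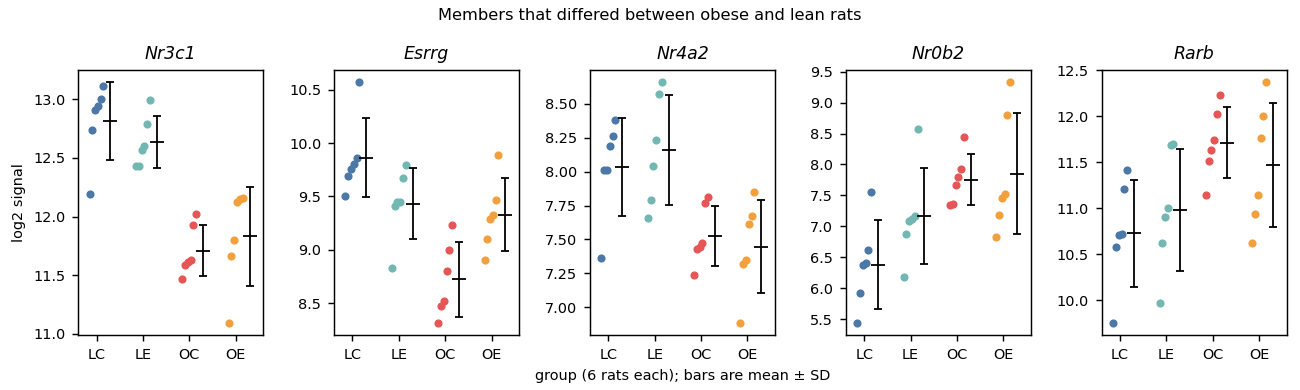
Log2 signal (vertical axis, a different range for each gene) of the 5 members called for genotype, with 1 point per rat in each group and the group mean ± SD (n = 6) as black bars. For Nr3c1 all obese rats lie below all lean rats, and for Esrrg the OC rats, at 8.31 to 9.23, lie below all LC rats.

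Nr0b2, the small heterodimer partner SHP, has no DNA-binding domain of its own, is induced by FXR in response to bile acids and represses other receptors. It was at 5.43 to 7.55 in LC (median 6.39) and at 7.35 to 8.44 in OC (median 7.73). On ecdysterone it was at 6.18 to 8.57 in LE (median 7.10) and 6.82 to 9.33 in OE (median 7.49). Of the OC rats 4 lay above every LC rat, and LE and OE overlapped widely. The mean of LC, 6.38, lay at the background limit and 3 of its 6 rats were above that limit, so the fold in OC vs. LC is set against a group at background. The log2FC was 1.37 ± 0.38 (FC 2.59) in OC vs. LC with an adjusted p of 0.0428, 0.69 ± 0.38 in OE vs. LE with an adjusted p of 0.474, and 1.03 ± 0.27 over both diets with an adjusted p of 0.0141. In OC vs. LC the call was lost in 9 of 24 fits without 1 array, with the methods' t-test on these groups alone, with trend and robust eBayes, and without the 4 rats low in Nr1d1 (log2FC 1.13, adjusted p = 0.132). Over both diets it remained without these 4 rats (1.09, adjusted p = 0.014). With the stellate cell or erythroid score in the fit, the adjusted p over both diets was 0.763 and 0.584, at 0.56 and 1.08.

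Rarb (retinoic acid receptor beta) is itself switched on by retinoic acid, and stellate cells, which store vitamin A, are among the liver cells that express it. Its signal was 9.75 to 11.42 in LC (median 10.72), 9.97 to 11.70 in LE (median 10.96), 11.14 to 12.23 in OC (median 11.68) and 10.62 to 12.37 in OE (median 11.45). Of the OC rats 5 lay above every LC rat, and LE and OE overlapped widely. The log2FC over both diets was 0.74 ± 0.21 (FC 1.66) with an adjusted p of 0.0315. Within a diet it was 0.98 ± 0.30 (adjusted p = 0.083) and 0.49 ± 0.30 (adjusted p = 0.543). The call over both diets was lost in 9 of 24 fits without 1 array (adjusted p up to 0.063), with trend and robust eBayes (adjusted p = 0.0548) and without the 4 rats low in Nr1d1 (0.77, adjusted p = 0.0813). With the stellate cell score in the fit the log2FC was 1.01 (adjusted p = 0.324) and with the erythroid score -0.09 (adjusted p = 0.976).

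The promoters of the 2 members that were higher in obese rats, Nr0b2 and Rarb, are shown because each has a single window in the RefSeq table and holds 1 of the motifs searched. The windows run from 250 bases before to 50 bases after the start site (RefSeq, build GRCr8, plus strand), chr5:151062910-151063209 for Nr0b2 and chr15:11336142-11336441 for Rarb. Capitals mark an E-box, CACGTG, to which clock proteins can bind, in Nr0b2, and a direct repeat, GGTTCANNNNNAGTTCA, in Rarb. In mouse and human, such a repeat in this promoter is the known retinoic acid response element.
Nr0b2: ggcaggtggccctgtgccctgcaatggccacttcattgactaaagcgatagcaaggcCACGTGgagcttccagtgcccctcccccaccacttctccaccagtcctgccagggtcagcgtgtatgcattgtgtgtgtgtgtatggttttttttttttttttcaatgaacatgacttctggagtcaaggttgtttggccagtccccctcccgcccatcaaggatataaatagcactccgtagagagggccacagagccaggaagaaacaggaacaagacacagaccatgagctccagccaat
Rarb: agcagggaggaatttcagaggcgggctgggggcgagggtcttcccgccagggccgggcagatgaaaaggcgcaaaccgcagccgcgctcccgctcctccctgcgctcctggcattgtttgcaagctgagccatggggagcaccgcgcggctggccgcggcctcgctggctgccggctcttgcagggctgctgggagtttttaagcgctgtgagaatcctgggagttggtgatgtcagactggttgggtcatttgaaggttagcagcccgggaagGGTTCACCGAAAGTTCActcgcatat

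On both strands, CACGTG occurred in 6.42% of 33469 promoter windows of this length and in 3 of 45 windows of the 37 members that RefSeq matched. The direct repeat, looked for because it was seen in Rarb, occurred in 3 of the 33469 windows. The receptor motif AGGTCA was in 16.2% of all windows and in 4 of the 45 member windows, 1 of them among the 4 windows of Esrrg. AAAGGTCA, to which NR4A receptors bind, was in 1.43% of all windows and in none of the 45. The motifs overlap, since AAAGGTCA contains AGGTCA. A match is a run of letters and not a measured site.

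None of the receptors that sense bile acids, oxysterols and fatty acids was called for genotype. Nr1h4 had a log2FC of -0.52 ± 0.19 in OC vs. LC (adjusted p = 0.175) and -0.33 ± 0.13 over both diets (adjusted p = 0.16). Its signal was 15.94 to 16.62 in LC and 15.09 to 16.24 in OC, and 4 of the OC rats lay below every LC rat. Pparg, a driver of fat storage, was at -0.39 ± 0.13 over both diets (adjusted p = 0.0884), and without LC rat 6 its adjusted p was 0.0386. Ppara, the receptor that induces fat oxidation, was at 0.31 ± 0.24 (adjusted p = 0.557), and its sign turned without the 4 rats low in Nr1d1 (-0.07) and with the clock gene score in the fit (-0.15). Nr1h3 was at 0.08 ± 0.15 (adjusted p = 0.855), with a 95% interval of -0.23 to 0.39.

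For the xenobiotic receptors, Nr1i2 was at 0.49 ± 0.18 over both diets (adjusted p = 0.115, and 0.0251 without LC rat 5), and Nr1i3 at -0.24 ± 0.19 (adjusted p = 0.578). Hnf4a was at -0.34 ± 0.17 (adjusted p = 0.292) and, with the stellate cell score in the fit, at 0.07. Rxra was at 0.02 ± 0.09 with a 95% interval of -0.17 to 0.21. Rxrg, the member of its subfamily with the larger difference, was at 0.46 ± 0.16 (adjusted p = 0.0834). Esr1 was at -0.01 ± 0.18 (-0.39 to 0.36) and Esr2, below background, at -0.04 ± 0.10 (-0.25 to 0.17). Both thyroid hormone receptors were at -0.26, with adjusted p values of 0.23 for Thra and 0.327 for Thrb.

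Several members passed the FC and unadjusted p rule within a diet without being called. In OC vs. LC these were Rarb and Rxrg, higher in OC, and Nr1h4, Nr4a2, Thrb and Nr1h2, lower. Rxrg, a retinoid X receptor best known from muscle and brain, was at 7.37 to 8.78 in LC (median 8.64) and 8.67 to 9.42 in OC (median 9.05). In OC 5 rats lay above every LC rat, and LC rat 4 was far below its group. Thrb, the main thyroid hormone receptor of the liver, was at 11.65 to 12.90 in LC (median 12.26) and 11.24 to 11.96 in OC (median 11.79), with overlap. Its log2FC was -0.50 ± 0.19 (adjusted p = 0.214). Nr1h2 was at 9.24 to 10.53 in LC and 9.18 to 9.79 in OC, and its log2FC was -0.40 ± 0.17 (adjusted p = 0.307).

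In OE vs. LE the members past that rule and not called were Pparg and Hnf4a. Pparg was at 8.07 to 8.67 in LE (median 8.36) and 7.48 to 8.26 in OE (median 7.86), and 4 OE rats lay below every LE rat. Its log2FC was -0.49 ± 0.19 (adjusted p = 0.234). Hnf4a was at 13.58 to 14.78 in LE (median 14.05) and 13.02 to 14.44 in OE (median 13.39), with a log2FC of -0.55 ± 0.24 (adjusted p = 0.332). Hnf4g, its paralogue, spread over 8.11 to 11.35 among the 24 rats, and its log2FC in OE vs. LE was -0.49 ± 0.39 (adjusted p = 0.677).

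Ecdysterone was followed in 4 comparisons, and none of the 43 members passed an adjusted p of 0.05 in limma in any of them. Nor did any of the 23188 transcripts (0% in LE vs. LC, OE vs. OC, both genotypes together, and the interaction). The lowest adjusted p among members was 1, 0.858, 0.983 and 1. After Benjamini-Hochberg adjustment, the methods' t-test called 0 members in OE vs. OC and 0 in LE vs. LC. At an unadjusted p under 0.05 there were 5 members in LE vs. LC, 1 in OE vs. OC, 1 over both genotypes and 1 in the interaction, beside 3.51%, 5.7%, 4.89% and 3.93% of all transcripts. Past an FC of 1.3 as well were 4, 1, 0 and 1 members, beside 2.62%, 4.23%, 0.91% and 3.93%. The median size of the difference was 0.20, 0.13, 0.12 and 0.25 over the members, beside 0.11, 0.13, 0.09 and 0.17 over all transcripts. The groups overlapped for every member, and failed to overlap for 0.194% of all transcripts in lean and 0.22% in obese rats.

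In LE vs. LC the smallest unadjusted p values belonged to Rara, Nr5a2 and Esrrg. Rara, the widely expressed retinoic acid receptor, was at 8.96 to 9.59 in LC (median 9.30) and 9.16 to 10.35 in LE (median 9.66), and 3 LE rats lay above every LC rat. Its log2FC was 0.44 ± 0.18 (unadjusted p = 0.0196), and 0.73 without the 4 rats low in Nr1d1. Nr5a2 (LRH-1), which drives bile acid synthesis genes, was at 11.83 to 12.43 in LC (median 12.04) and 12.09 to 12.75 in LE (median 12.42). Its log2FC was 0.35 ± 0.15 (unadjusted p = 0.0303, adjusted p = 1). Nr0b2, which is known to restrain Nr5a2, was at 0.78 ± 0.38 (unadjusted p = 0.0466), and 1 LE rat lay above every LC rat.

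In OE vs. OC, after Esrrg, the smallest p values were those of Hnf4a (log2FC -0.45 ± 0.24, unadjusted p = 0.0753) and of Nr0b1 (-0.28 ± 0.15, unadjusted p = 0.0819), the latter below background. Hnf4a was at 13.65 to 14.48 in OC (median 14.00) and at 13.02 to 14.44 in OE (median 13.39), and 4 OE rats lay below every OC rat. Over both genotypes the smallest were Esrrb (-0.29 ± 0.14, unadjusted p = 0.0486), which was below background, Rxrb (0.30 ± 0.16, 0.0604), which was near it, and Nr2c1, the orphan receptor TR2 (0.22 ± 0.12, 0.0696). In the interaction, Rara (-0.45 ± 0.25, unadjusted p = 0.0835) and Thrb (0.48 ± 0.27, 0.0856) followed Esrrg.

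**Figure D4:**
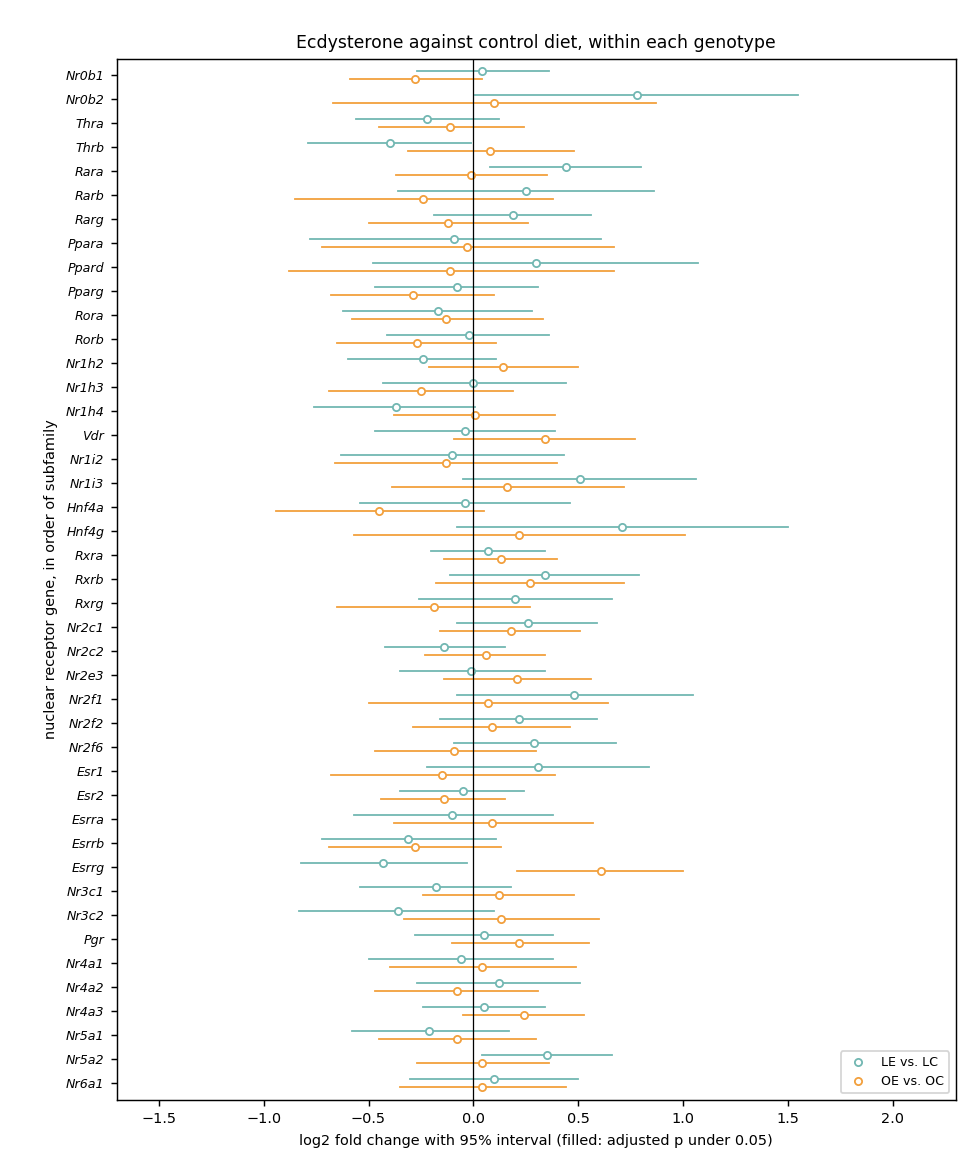
Log2 fold change (horizontal axis) of each of the 43 members (rows) for LE vs. LC (turquoise) and OE vs. OC (orange), with 95% intervals from limma. No point is filled, since no adjusted p was under 0.05, and the Esrrg points lie at -0.43 and 0.61.

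The intervals show how large a diet difference these 6 against 6 rats leave possible. For the sex steroid receptor Esr1 the log2FC was 0.31 in LE vs. LC (95% interval -0.22 to 0.84) and -0.15 in OE vs. OC (-0.68 to 0.39). For Nr3c1 the values were -0.18 (-0.54 to 0.18) and 0.12 (-0.24 to 0.48). For the xenobiotic receptor Nr1i2 they were -0.10 (-0.63 to 0.43) and -0.13 (-0.66 to 0.40). For Ppard, with its wide spread, they were 0.30 (-0.48 to 1.07) and -0.11 (-0.88 to 0.67).

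Genes that receptors are known to control were followed in lists made for this purpose, and gene groups were counted over both diets, beside the 6.52% of all transcripts called. Of 16 glucocorticoid receptor targets 5 fell in obese rats and none rose, with a median log2FC of -0.01. Within a diet, 2 fell in OC vs. LC, with a median of -0.44, and 2 in OE vs. LE, with a median of 0.08. Those that fell over both diets were Sds (-4.08 ± 0.69) and Tat (-0.90 ± 0.28), which break down amino acids, Pck1 (-1.29 ± 0.25), the entry enzyme of gluconeogenesis, Dusp1 (-1.55 ± 0.28), a phosphatase of stress kinases, and Sgk1 (-0.91 ± 0.26), a kinase of salt and glucose transport. Fkbp5 and Per1, induced by glucocorticoids in many tissues, were at 0.38 ± 0.13 (adjusted p = 0.09) and 0.78 ± 0.28 (adjusted p = 0.0959). None of 14 steroid receptor chaperones was called, with a median of 0.09. Among them Hsp90ab1 was at -0.17 (adjusted p = 0.395).

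Of 10 genes induced by FXR, 1 rose and 3 fell, with a median of -0.20. The gene that rose was Nr0b2 itself, and Baat (-0.52 ± 0.10), which couples bile acids to taurine and glycine, Abcb4 (-0.76 ± 0.23), which exports phospholipid into bile, and Abcb11 (-0.45 ± 0.13), the bile salt export pump, fell. Of 4 bile acid genes that SHP represses, Cyp7a1, the first enzyme of bile acid synthesis, rose (2.08 ± 0.57, adjusted p = 0.0216) and the other 3 were not called. It is also on the LXR list, of whose 13 genes 4 rose and 1 fell, with a median of 0.08. The others that rose were Fasn (1.66 ± 0.29), Srebf1 (0.94 ± 0.19) and Scd1 (0.59 ± 0.12), all of fatty acid synthesis, and Smpdl3a fell (-0.41 ± 0.12).

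The 2 lists of fatty acid receptors moved mostly upwards while Ppara and Pparg themselves were not called. Of 26 measured PPAR alpha targets 14 rose and 1 fell, with a median of 0.47. Hadhb (0.99 ± 0.10) and Acadl (0.78 ± 0.09), enzymes of mitochondrial fat oxidation, and Pex11a (0.94 ± 0.15), of peroxisomes, had the smallest p values, and Acadm (-0.42 ± 0.10) fell. Of 10 genes that PPAR gamma switches on in fatty liver 5 rose and none fell, with a median of 0.41. Cd36, a fatty acid transporter, rose by 3.08 ± 0.23, Fabp4 by 2.87 ± 0.30 and Cidea, a lipid droplet protein, by 2.12 ± 0.34. Only 5 of these 10 genes were above the array background in LC and in LE, and 6 in OC and in OE.

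**Figure D5:**
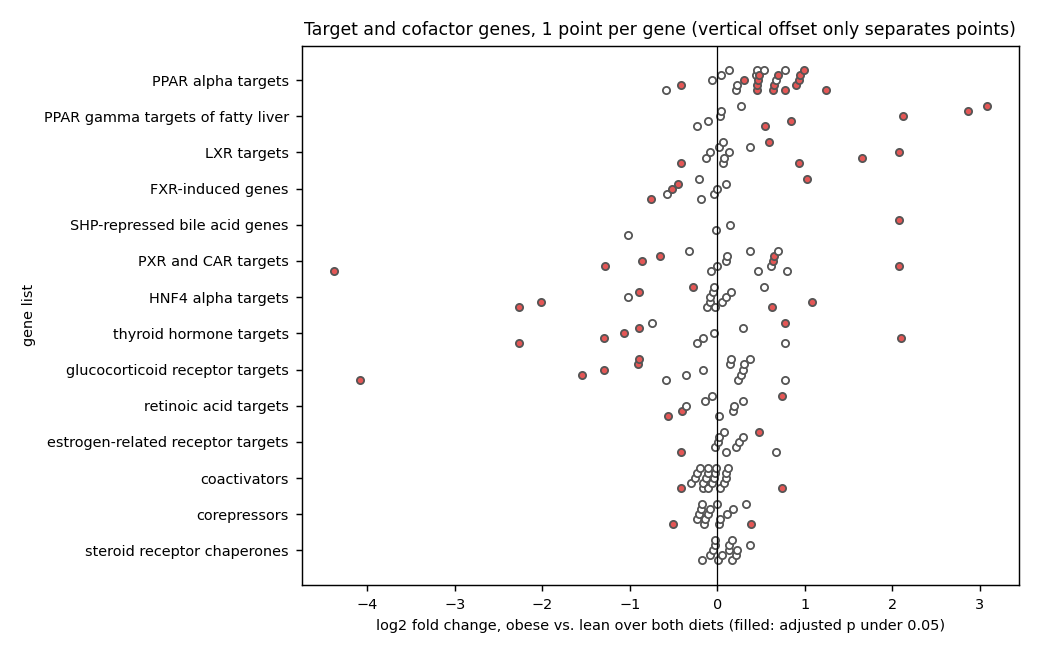
Log2 fold change of obese vs. lean rats over both diets (horizontal axis) for the genes of 14 target and cofactor lists (rows), 1 point per gene, filled where the limma adjusted p was under 0.05. PPAR alpha targets lie mostly right of 0 (median 0.47), the filled glucocorticoid receptor targets all lie left of it, and the chaperones cluster at a median of 0.09 with no filled point.

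Of 17 measured PXR and CAR targets 3 rose and 4 fell, with a median of 0.11. Cyp3a18 (-4.38 ± 0.24), a steroid hydroxylase, fell, as did Abcc2 (-1.28 ± 0.15), an export pump, Cyp3a23/3a1 (-0.86 ± 0.11) and Gsta2. Aldh1a1 (2.08 ± 0.27), which makes retinoic acid from retinal, rose. Of 17 HNF4 alpha targets 2 rose and 4 fell. Apoa1 (1.08 ± 0.13) and Mttp (0.63 ± 0.14), both of lipoprotein assembly, rose. Cyp2c11 (-2.01 ± 0.23), a steroid hydroxylase of male rats, and G6pc (-2.27 ± 0.49), which releases glucose, were among those that fell. Of 10 retinoic acid targets 1 rose, Rarb itself, and 2 fell, Rarres2 (-0.40 ± 0.09) and Dhrs3 (-0.56 ± 0.17). Cyp26a1, the retinoic acid hydroxylase, was among the 7 not called.

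Of 12 thyroid hormone targets 2 rose and 4 fell, among them Me1 (2.10 ± 0.28) upwards and Dio1 (-1.07 ± 0.15), which activates thyroid hormone, downwards. Of 21 coactivators, with which receptors switch genes on, Trim24 rose (0.74 ± 0.19) and Kat2b fell (-0.41 ± 0.12), and of 16 corepressors Lcor rose (0.39 ± 0.11) and the deacetylase Hdac2 fell (-0.51 ± 0.13). That is 9.52% and 12.5% called, and the median was -0.10 for both groups. The Trim24 value is that of the probe set with the highest mean signal. The paper lists 2 Trim24 transcripts as higher in OC than in LC, with unlike fold changes. It also names Trim24 among the transcripts most reduced in OE vs. OC, by fold change and unadjusted p. In the 4 ecdysterone comparisons no gene of any of these lists was called.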

How the data were processed

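Liver RNA was hybridised to 24 Affymetrix Clariom S rat arrays. With SST-RMA (Affymetrix Expression Console 1.4) the authors background-corrected, normalised and summarised the arrays as 1 set, and the deposited values are log2 signals. The genome build of the deposited annotation is not given in the sources used here. The authors' own columns of group means, log ratios, fold changes and p-values were not used. A second deposited table of log2 signals differed by at most 0.005. Scanner intensities were not used here.

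All 23188 transcripts were fitted with limma 3.58.1 (R 4.3.3; lmFit and eBayes, 4 group means, 20 residual and 8.4 prior degrees of freedom), with Benjamini-Hochberg adjustment over all transcripts and an adjusted p under 0.05 as threshold. Pairwise comparisons of single members were also tested by two-sided exact permutation over 924 splits. Where a gene had several probe sets, that with the highest mean signal was used. The number of arrays limits the precision. The labels state neither batch nor pairing, and array numbers follow group order. The fit was tested on simulated data.

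The members, lists and tests were chosen with earlier results of these data known. Named were members called for genotype, the 3 with the smallest p in each ecdysterone comparison, and 12 receptors of liver metabolism and sex steroids (Nr1h4, Nr1h3, Ppara, Nr1i2, Nr1i3, Hnf4a, Nr3c1, Rxra, Nr0b2, Esr1, Esr2, Pparg), and from lists up to 4 called genes with the smallest p. Further genes (Rxrg, Ppard, Hnf4g, Nr1h2, Thra, Thrb and some list genes) and the promoter motifs were named after their values were seen. Alternatives were the methods' t-test (Student's), limma on 2 groups, other centring and filters, trend and robust eBayes, array weights, the second table, a clock gene covariate and leaving out each array. A stellate cell score, an erythroid score and the removal of 4 rats low in Nr1d1 were added after seeing the data. Results for a few genes outside the family are not reported here.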

Additional observations from a re-analysis of the deposited data

Results flagged for a closer look

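In each group of 6 rats, the highest or lowest signal of a member was marked where its gap to the nearest other rat exceeded the 95% limit of Dixon's test for 6 values. Chance marks about 1 in 20 groups, and 10 of 172 were marked (5.81%). Of these, 5 lie in genes well above background. LC rat 4 was high in Esrrg, at 10.57 with the others at 9.50 to 9.86. LC rat 1 was low in Nr4a2, at 7.36 with the others at 8.01 to 8.38. OC rat 18 was low in Thrb, at 11.24 with the others at 11.70 to 11.96, and LC rat 4 was low in Rxrg, at 7.37 with the others at 8.29 to 8.78. OE rat 20 was high in Nr6a1 (the germ cell nuclear factor), at 8.18 with the others at 7.31 to 7.54. The other 5 lie near or below background. Nr2f1 was low in LE rat 12 (5.20; others 6.65 to 7.25) and high in OE rat 22 (7.02; others 6.20 to 6.41). Vdr was low in LE rat 7, at 4.94, and in OC rat 16, at 4.49, and Esr2 was high in LC rat 2, at 3.72. LC rat 4 was the only rat marked for more than 1 gene.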

How the results depend on the processing

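Over 32 values of single members, 399 refits were made with an alternative setting. Of these, 27 lost the call and 4 turned sign by more than the SE of the main fit. The other 368 kept the side of the threshold. They also kept the direction, or turned sign without a call by no more than that SE. An example of the latter is Rxra over both diets (0.02, and down to -0.04). The 4 refits that turned sign by more were Rarb over both diets with the erythroid score (-0.09), Ppara with the clock gene score (-0.15) and without the 4 rats low in Nr1d1 (-0.07), and Hnf4a with the stellate cell score (0.07). The stellate cell score did not overlap between the genotypes, and the erythroid score barely did. A fit with either score therefore cannot tell genotype from cell type, and a call lost in it does not show a part of cell type. The share of all transcripts still called in these fits was not counted. Of the 3 members called in OC vs. LC, 1 remained with the stellate cell score and 0 with the erythroid score, and of the 5 called over both diets likewise 1 and 0. Of the 2 called in OE vs. LE, 1 remained with limma on both groups only, with the clock gene score and without the 4 rats low in Nr1d1, and 0 with the methods' t-test, the stellate cell score or the erythroid score. Leaving out each array gave 2 to 4 called members in OC vs. LC, 1 to 2 in OE vs. LE and 4 to 6 over both diets. No ecdysterone comparison called a member under any setting. With the methods' t-test, 1 member in place of 4 passed FC 1.3 and an unadjusted p under 0.05 in LE vs. LC. Members above background in any group numbered 31 to 33. Genes of the target and cofactor lists were not refitted with the alternative settings. No paired analysis was possible because every rat has its own replicate number. Signals near background limit what can be said of the 10 members below it.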
